A study of Mus musculus with 6 samples.

Results

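The interval described here spans 200 kb near the distal end of mouse chromosome 10, from 127.45 to 127.65 Mb in GRCm38. It holds the genes Stac3, Ndufa4l2, Shmt2, Nxph4 and Lrp1, together with one end of R3hdm2 and the start of Stat6. Its members are the 46 peaks of DNA methylation, of 84111 in the list as analysed here, whose midpoint falls between these limits. That list breaks off in an incomplete line on chromosome 6, and peaks of chromosomes 7 to 9 and of both sex chromosomes were not used here; shares of the list below refer to the portion analysed. The interval was chosen by the positions of the peaks of this same list, so their number, spacing, width and fold are given as descriptions and were not tested. The list came from MBD-seq, in which sonicated DNA is enriched with MBD2, a protein that binds methylated CpG, and the captured fragments are sequenced. The DNA was from primary chondrocytes, the cells of cartilage, cultured from knee articular cartilage of mice aged 3 to 5 postnatal days. Per the labels, 3 control cultures had the genotype Dnmt1 flox and 3 conditional knockout cultures (cKO) had Prx1-Cre;Dnmt1 flox/flox, so a floxed Dnmt1 allele is named in both groups. Prx1-Cre is active in limb bud mesenchyme, from which limb cartilage forms. The peaks were called once, on 3 merged datasets whose group the list does not name. The submitters title the list as Dnmt1-mediated DNA methylation regions. How Dnmt1 entered the calling is not given in the sources used here. The list holds no expression values, so the labelled cell type cannot be checked against markers. No value belongs to any of the 6 samples, so control and cKO cannot be compared, no spread between cultures can be given, and no sequencing depth per sample is known.

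DNMT1 copies methylation of CG dinucleotides onto new DNA strands when DNA is replicated. MBD2 capture recovers fragments that carry several methylated CGs, so a peak reflects both methylation and CG content. In mammals most CGs in the bodies of transcribed genes are methylated, whereas CG-rich start sites are usually not. Of the genes here, Shmt2 encodes the mitochondrial serine hydroxymethyltransferase, which converts serine to glycine and supplies folate-bound one-carbon units. Ndufa4l2 encodes a mitochondrial protein related to NDUFA4 that is induced by hypoxia. Lrp1 encodes a large endocytic receptor of the LDL receptor family, which takes up lipoproteins, proteases and matrix proteins. Stac3 encodes a protein of excitation-contraction coupling in skeletal muscle, and Nxph4 a secreted ligand of neurexins.

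The upstream sequences of Lrp1 and Shmt2 are shown first, because no peak reached either of them while both gene bodies held several. Another sequence, upstream of one start of the lncRNA gene Gm30989, is shown for contrast, since the first peak beyond the interval overlapped it. Each is the 250 bases before a start site, 5′ to 3′ on the gene's minus strand, from RefSeq on GRCm38.p6. Capitals mark each CG dinucleotide. They lie at chr10:127621149-127621398 (Lrp1), chr10:127522445-127522694 (Shmt2) and chr10:127650706-127650955 (Gm30989).
Lrp1: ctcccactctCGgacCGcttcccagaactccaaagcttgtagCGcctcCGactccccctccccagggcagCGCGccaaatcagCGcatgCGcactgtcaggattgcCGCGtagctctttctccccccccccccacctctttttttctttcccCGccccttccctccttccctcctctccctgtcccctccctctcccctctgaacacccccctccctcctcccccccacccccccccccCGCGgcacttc
Shmt2: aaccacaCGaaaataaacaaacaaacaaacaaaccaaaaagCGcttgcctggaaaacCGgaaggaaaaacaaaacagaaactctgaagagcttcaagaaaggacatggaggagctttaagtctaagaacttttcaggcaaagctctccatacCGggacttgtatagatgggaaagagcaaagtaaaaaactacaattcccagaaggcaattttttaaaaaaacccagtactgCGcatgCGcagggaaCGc
Gm30989: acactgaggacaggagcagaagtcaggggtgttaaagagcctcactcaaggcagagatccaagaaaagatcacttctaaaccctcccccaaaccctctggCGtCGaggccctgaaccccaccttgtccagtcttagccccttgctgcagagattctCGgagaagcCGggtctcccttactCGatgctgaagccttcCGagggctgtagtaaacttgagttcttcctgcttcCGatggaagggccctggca
The Lrp1 sequence holds 13 CGs and the other two hold 7 each. GC content was 67.2% for Lrp1, 40.8% for Shmt2 and 55.2% for Gm30989. The table held promoters for 2 of the 5 genes, Lrp1 and Shmt2. Gm30989 has further starts, with mixed outcomes. The first peak beyond the interval also overlapped its window at 127650834 to 127651083. Its windows at 127651955 to 127652204 and 127653029 to 127653278 met no peak.

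Across the covered sequence, a peak overlapped 3.87% of 24390 such windows (943) by at least 1 bp. The motif searched was CG, which reads the same on both strands; 92.7% of windows held at least 1, with a median of 6. At least as many CGs as in Lrp1 were found in 32.7% of windows, and at least as many as in Shmt2 in 47.4%. Overlap with a peak was rarest at both extremes of CG number, with 0.923% of 6822 windows holding 0 to 2 CGs and 0.647% of 4637 windows holding 20 or more. It was 7.31% for 3 to 9 CGs and 5.36% for 10 to 19. Windows of 1 gene can overlap each other, so these are not independent. The windows of Lrp1 and Shmt2, with 13 and 7 CGs, were not overlapped, as was the case for most windows of every class. The nearest peak was 8435 bp from the Lrp1 window and 1302 bp from the Shmt2 window. None of the 5 windows of this kind within the interval, which besides these belong to Stat6 and the lncRNA genes Gm51820 and Gm40802, met a peak.

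The interval held 23.0 peaks per 100 kb, against 8.50 in the left flank of 200 kb, 10.0 in the right flank and 4.80 over chromosome 10. The ratio to the mean of the flanks was 2.49 and to the chromosome 4.79. Peaks covered 27264 bp, or 13.6% of the interval, compared with 4.06% of the left flank, 5.64% of the right flank and 2.22% of chromosome 10. The flanks, at 9.25 peaks per 100 kb together, were themselves above the chromosome's average. On the grid of 200 kb windows that contains the interval, chromosome 10 had a median of 7 peaks per window (quartiles 3 and 13; 636 windows, 16 of them without a peak). Of these windows 2 had more peaks than the interval, with 52 and 48, and 1 had more bases in peaks. The first lies at 76250000 to 76449999 and holds Pcnt and Dip2a. The second lies at 79850000 to 80049999 and holds Abca7, Gpx4 and other genes. Both had lower median folds, 18.3 and 18.2, than the 25.7 of the interval. Among the 244 windows with 10 or more peaks, 1 had a higher median fold than the interval. It lies at 80450000 to 80649999, with 24 peaks and a median fold of 30.5. These windows were singled out after their values were seen.

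**Figure D1:**
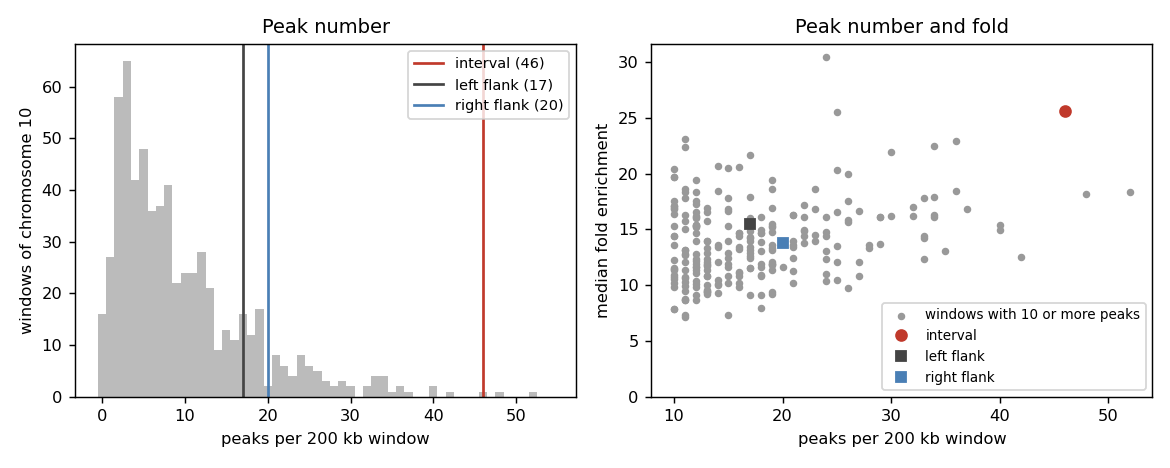
Left, number of windows of 200 kb on chromosome 10 (vertical axis) by the number of peaks they hold (horizontal axis), with lines for the interval (46 peaks), the left flank (17) and the right flank (20). Right, median fold enrichment against peak number for the 244 windows with 10 or more peaks; the interval lies high on both axes, with a median fold of 25.7.

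The peaks of the interval also had a higher median fold and a larger median width than those of either flank. Fold enrichment is the peak caller's ratio of signal to its background at the summit. What served as the caller's control is not given in the sources used here, so a fold cannot be read as control against cKO or as a level of methylation. In the interval it had a median of 25.7 (quartiles 11.4 and 34.9; range 6.10 to 55.1). It was 15.5 in the left flank (9.50 and 23.6), 13.8 in the right flank (10.2 and 27.8), 13.6 over chromosome 10 and 13.2 over the whole list. The ranges overlapped widely: the highest folds in the flanks, 37.2 and 35.5, exceeded most members. A fold of at least 20 was reached by 26 of 46 members (56.5%), by 6 of 17 and 9 of 20 peaks in the flanks, and by 28.9% of the list. The 13 members outside Lrp1 had a median fold of 18.9, and 6 of them (46.2%) reached 20. In Lrp1 the median fold was 28.6, and 20 of 33 members (60.6%) reached 20. A fold of at least 40 was reached by 9 members, by 0 of the 37 flanking peaks and by 2.14% of the list. The median −log10 q was 227 in the interval, 95.3 and 80.1 in the flanks, and 107 in the list.

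Width had a median of 548.5 bp in the interval (quartiles 351 and 662), 477 bp in the left flank, 351 bp in the right flank and 415 bp in the list. Widths of at least 1 kb occurred in 5 members, in 3 of the flanking peaks and in 3.93% of the list. The widest peak of the 3 regions lay in a flank, at Zbtb39, with 2835 bp. Wider members had higher folds (Spearman's rho = 0.86 over 46 peaks of 1 list, sharing library, depth and background); rho was 0.91 in the left flank, 0.90 in the right flank and 0.55 over the whole list, so the relation was at least as tight in the flanks. Members were close together, with a median gap of 911 bp between the end of one and the start of the next, against 3188.5 bp and 6045 bp in the left and right flanks and 7693 bp over chromosome 10. In the interval 15 of 45 gaps were of 500 bp or less, and in the flanks 3 of 35 were.

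**Figure D2:**
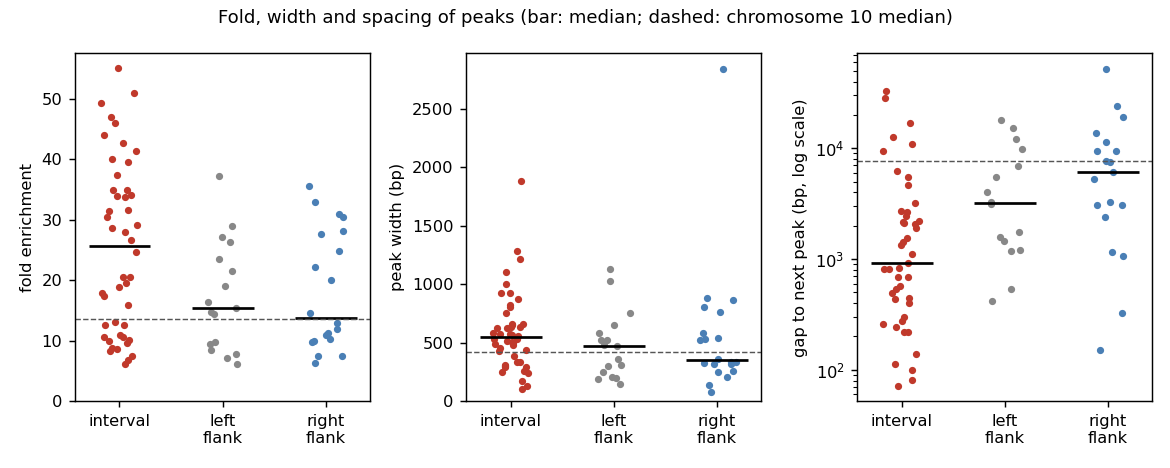
Fold enrichment, width (bp) and gap to the next peak (bp, log axis) for each peak of the interval (46), the left flank (17) and the right flank (20); bars mark medians and the dashed line the median of chromosome 10. Median folds were 25.7, 15.5 and 13.8, and the groups overlap in all 3 measures.

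The number of reads stacked at each summit (the pileup) and the caller's background there were recovered from fold and p-value. Median pileup was 207.5 reads in the interval (range 44 to 405), 113 in the left flank, 100.5 in the right flank and 127 in the list. The lowest background, 6.37 reads, applied to 43 of 46 members, against 75.0% of the list, and to 17 of 17 and 16 of 20 flanking peaks. The members above it were a peak in R3hdm2 (11.5 reads), one of 1880 bp in Lrp1 (6.46 reads) and another in Lrp1 (16.3 reads). For the other members the fold is a comparison with 1 fixed background, so that fold and pileup rank them alike. A larger share of the list lay above the lowest background. The rho of width and fold over the whole list is therefore not a like measure to set beside that of the interval.

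All 46 midpoints lay in the body of a protein-coding gene, as did 52.9% of peaks on chromosomes. Such bodies occupy 84.4% of the interval. Lrp1 held 33 of the members (71.7%) on 41.5% of the interval's length, R3hdm2 held 6, Shmt2 3, Stac3 2, Nxph4 1 and Stat6 1. Ndufa4l2 held none. Thus 4 of the 5 genes had a peak in the body, beside 64.7% of 15765 protein-coding genes on covered sequence. Without Lrp1, the rest of the interval had 11.1 peaks per 100 kb, 1.20 times the flanks, so the excess over the flanks lay mostly in Lrp1, at 39.8 per 100 kb.

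**Figure D3:**
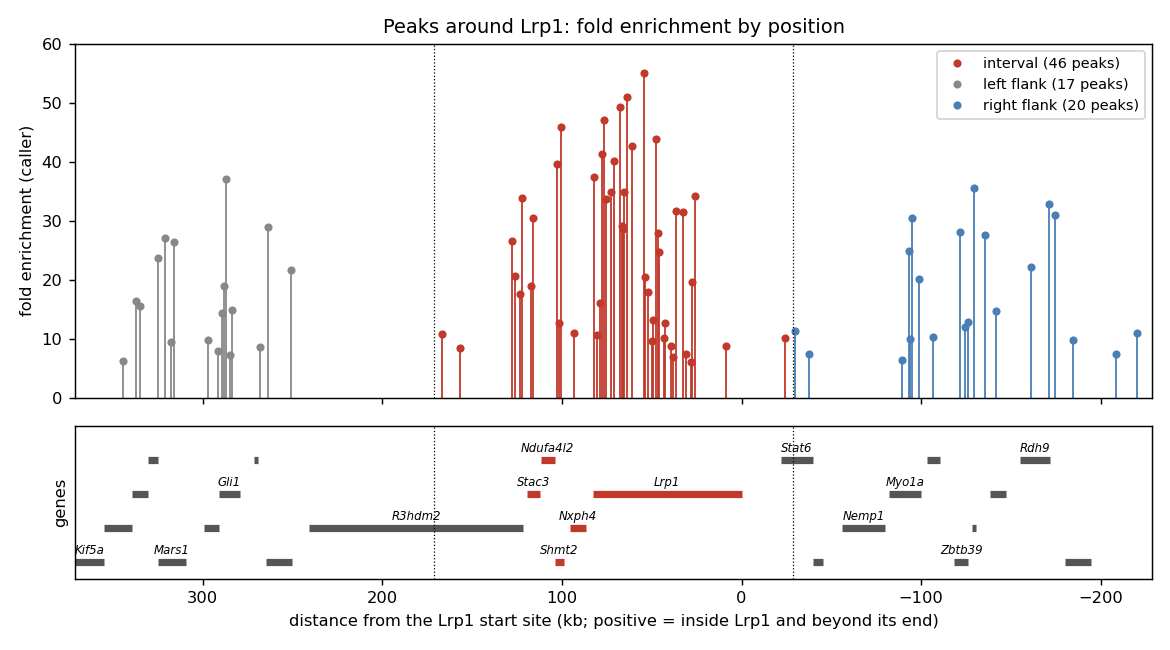
Fold enrichment of each peak (vertical axis, above) by distance from the Lrp1 start site in kb (horizontal axis), with protein-coding genes as bars below, the 5 genes in red, and dotted lines at the limits of the interval. Of the 46 members (red), 33 lie in Lrp1, most of them between its end and 25528 bp from its start. Folds rise to 55.1 in the interval and to 37.2 in the flanks (grey and blue).

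R3hdm2 encodes a protein with an R3H domain, which binds nucleic acids. It runs from 127380332 to 127499384 on the plus strand, and its last 49385 bp fall in the interval. The portion toward its start was bare, since no peak lay between 127370366 and 127454366, a stretch of 84001 bp that crosses the edge of the interval. The 2 members inside R3hdm2 nearest that edge were weak, with folds of 10.7 (127454367 to 127454622) and 8.41 (127464149 to 127464392). The last 10 kb of the gene held 4 members with folds of 26.6, 20.6, 17.5 and 33.9, in order along the strand. The strongest, at 127498332 to 127498891, was 772.5 bp from the gene's end.

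Stac3 (127501617 to 127508823) held 2 members, 681 bp apart. The one at 127503509 to 127504037 had a fold of 18.9 and the one at 127504719 to 127505255 a fold of 30.5. Peaks covered 14.8% of this gene. Its relative Stac2, on chromosome 11, had 1 peak in 16840 bp, 0.594 per 10 kb against 2.78 in Stac3. The remaining relative, Stac, was not on covered sequence.

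Ndufa4l2 (127509274 to 127517154) was the gap in this series of marked genes. No peak overlapped its 7881 bp, which lie inside a peak-free stretch of 12589 bp from Stac3 to Shmt2. The nearest peaks were 4018 bp from one end and 690 bp from the other. In the gene table it overlaps the end of Shmt2 by 32 bp. Of 2690 protein-coding genes of 4 to 10 kb, 51.9% also had no peak, so a gene of this length without one is common. Both relatives, Ndufa4, whose product is part of the respiratory chain, and AA467197, likewise had 0 peaks.

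Shmt2 (127517123 to 127522444, minus strand) was the most densely covered of the 5 genes. Its 3 members lay in one run of 3299 bp that began 722 bp from the gene's end and stopped 1301 bp short of its start. The first, at 127517845 to 127518949, was 1105 bp wide with a fold of 39.6 and a pileup of 291 reads. The second, at 127519354 to 127519743, had a fold of 12.6. The third, at 127519856 to 127521143, was 1288 bp wide with a fold of 46.0 and a pileup of 338 reads. Together they covered 52.3% of the gene. Among the 2690 genes of 4 to 10 kb, 14 had a larger share covered, and 7.06% had 3 or more peaks.

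Nxph4 (127525473 to 127534559) held 1 narrow member of 337 bp at 127527416 to 127527752, with a fold of 10.99 and a pileup of 80 reads. It covered 3.71% of the gene, and 10886 bp without a peak followed, up to the end of Lrp1. Of the other neurexophilin genes, Nxph3 had 1 peak with a fold of 39.5, Nxph1 had 1 peak in 301006 bp, and Nxph2 had 0.

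Lrp1 (127538157 to 127621148, minus strand, 82992 bp) carried 33 members with a median fold of 28.6, of which 20 had a fold of at least 20. They covered 23.9% of the gene. In number this was 3.98 peaks per 10 kb, against a median of 0.391 over the 3827 protein-coding genes of 50 kb or longer. Of these, 4 were denser, namely Cit (5.31 per 10 kb), Gcn1 (5.21), Dnah17 (4.95) and Dync1h1 (4.27). Their median folds were 14.3, 23.6, 16.7 and 22.9, all below that of Lrp1. Among 1335 genes of 62257 to 103702 bp, the median was 4 peaks (quartiles 2 and 7), and 1, Trrap with 35, had more than Lrp1. These genes were named after their values were seen.

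The peaks of Lrp1 were not spread evenly. When the gene was divided into 10 equal parts of 8299 bp from its start, the first 3 parts held 1 peak and the other 7 held 32. In 2112 genes of 50 to 150 kb with a known strand, Lrp1 among them, the first 3 parts held 20.7% of all peaks. In Lrp1 they held 3.03%. Of the 353 such genes with 10 or more peaks, 35 (9.92%), Lrp1 itself included, had a share as low as that of Lrp1 or lower. A gene with fewer peaks than Lrp1 can meet this only with no peak in its first 3 parts. The count is therefore not a like-for-like comparison. Peaks grew more frequent toward the gene end in these genes as a whole, from 5.55% in the first part to 17.7% in the last. The last part of Lrp1 held 18.2% of its peaks, and the sixth held most, 21.2% (7 peaks).

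**Figure D4:**
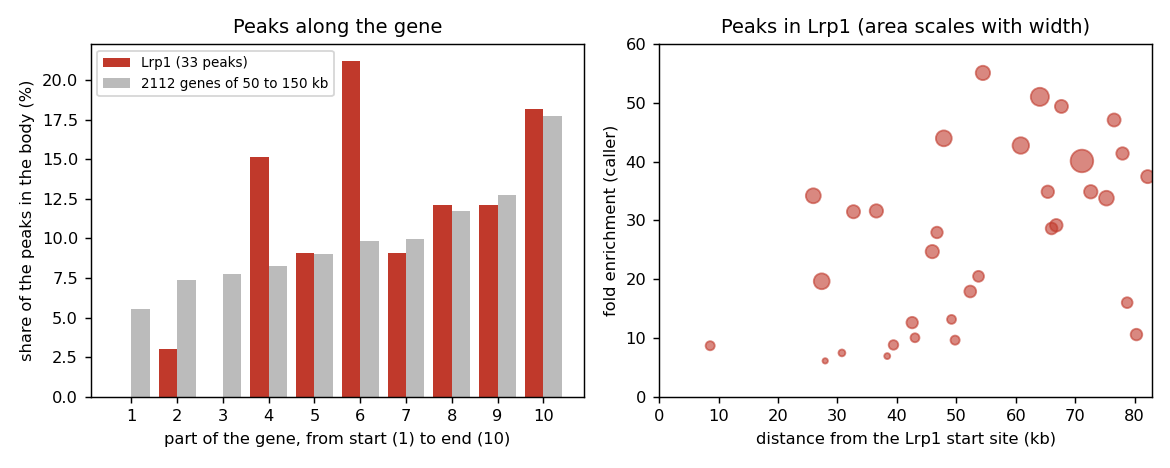
Left, share of the peaks in the gene body (%) in each of 10 equal parts of the gene from start to end. Values are for Lrp1 (red, 33 peaks) and for 2112 genes of 50 to 150 kb, Lrp1 among them (grey). Right, fold of each Lrp1 peak by distance from the start site (kb), with point area scaled to width; a single peak, with a fold of 8.68, lies in the first 3 parts.

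Fold and width changed along the gene as well. When the gene was cut at its centre, the side with the start held 9 peaks with a median fold of 8.82 and a median width of 338 bp. The side with the end held 24, with a median fold of 31.5 and a median width of 579.5 bp. The folds overlapped, from 6.10 to 34.2 and from 9.63 to 55.1. On the side with the start 3 of 9 folds were at least 20, and on the other side 17 of 24 were.

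From the gene's end toward its start, the first member began 482 bp inside Lrp1, at 127538639 to 127539270, with a fold of 37.4. A weaker one followed at 127540599 to 127541093, with a fold of 10.6. A run of 4 then spanned 127542193 to 127546294, with folds of 16.0, 41.4, 47.1 and 33.8 in order. At 127548201 to 127550961 lay 2 members with folds of 34.9 and 40.1, the second of them, at 1880 bp, the widest of the interval. Next came a run of 5 in 4552 bp, from 127553154 to 127557705, of which peaks covered 77.0%. Its folds were 49.4, 29.2, 28.6, 34.9 and 51.0, the last belonging to a peak of 1214 bp. A single member of 1005 bp at 127559804 to 127560808 had a fold of 42.7. Peaks covered 59.4% of the run of 4 and 92.1% of the 2761 bp around the 2 members that followed it.

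The middle of the gene held both the strongest member and many weak ones. The highest fold of the interval, 55.1, belonged to the peak of 757 bp at 127566301 to 127567057, with a pileup of 405 reads and a −log10 q of 556. Across the list 99.95% of peaks had a lower fold. Its neighbours, within the run ending at 127569060, had folds of 20.5 and 17.9. A run of 5 from 127571204 to 127575518 had folds of 9.63, 13.2, 44.0, 27.9 and 24.7. Between 127577959 and 127582840 lay 4 weaker members, with folds of 10.0, 12.6, 8.82 and 6.92.

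Nearer the start the signal became sparse. Members at 127584272 to 127584929 and 127588135 to 127588771 had folds of 31.6 and 31.5, and one at 127590311 to 127590483 a fold of 7.46. The last run, from 127593156 to 127595620, had folds of 6.10, 19.6 and 34.2. Its first peak, 107 bp wide with a pileup of 44 reads, was the weakest and narrowest of the interval. Its second peaked at 338 reads, and its background of 16.3 reads was the highest among the members. Beyond it, 16789 bp without a peak held the lncRNA genes Gm16217 and Gm51820, which lie within Lrp1. One member at 127612410 to 127612714, with a fold of 8.68, was the nearest to the start, at 8434 bp, and the next was 25528 bp away.

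Past that member, 32635 bp without a peak, the longest such stretch inside the interval, ran across the Lrp1 start, the lncRNA gene Gm40802 and the Stat6 start. Stat6, which encodes a transcription factor activated by interleukins 4 and 13, is on the plus strand. Its member in the interval, at 127645350 to 127645597, had a fold of 10.2. That was the last member, and the first peak outside followed 4980 bp later, at 127650578 to 127650907, with a fold of 11.3. It overlapped the Gm30989 sequence shown above and also lies in Stat6. At the other edge the first member began at 127454367, with a fold of 10.7, and the last peak before it ended at 127370365, in Inhbc, with a fold of 21.6. Members just inside and peaks just outside both limits thus had folds between 10.2 and 21.6.

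In the flanks, the genes with 3 or more peaks were Mars1 (3), Gli1 (5), Myo1a (5) and Zbtb39 (3). Kif5a, which reaches into the left flank, held 12 peaks, all of them beyond the flank's limit. R3hdm2 and Stat6, which cross the limits, held 6 and 3 in their whole bodies. Gli1, the transcription factor and target of Hedgehog signalling, had 4.27 peaks per 10 kb, above the 3.98 of Lrp1, with a median fold of 14.8 against 28.6. Zbtb39 had 3.84 per 10 kb with a median fold of 12.9. Gpr182, which encodes a G protein-coupled receptor, was looked at after its values were seen: it had 1 peak in 2197 bp, 4.55 per 10 kb, with a fold of 35.5, both above the values of Lrp1. Densities near or above that of Lrp1 were therefore found in the flanks too, on shorter genes.

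The 5 genes were last set beside relatives from lists of their families. Of the 14 listed genes of the LDL receptor family, 10 lay on covered sequence and all 10 had a peak in the body, as did 64.7% of all protein-coding genes on covered sequence. Gene length was not matched in this comparison. Of genes of 4 to 10 kb, 51.9% had no peak, whereas genes of 62257 to 103702 bp had a median of 4 peaks. The median of the 10 was 1.31 peaks per 10 kb. For all protein-coding genes, peaks summed over summed length gave 0.569. That value is not a median over genes, so it is not a like measure to set beside 1.31. Lrp1 was the densest of the 10. It was followed by Lrp10 (3.25, 2 peaks in 6156 bp), Lrp4 (2.13), Lrp8 (1.74) and Lrp5 (1.47), the last a coreceptor for Wnt ligands. The least dense was Lrp1b, the closest relative of Lrp1, with 0.136 per 10 kb, which is 28 peaks in 2058309 bp, and a median fold of 10.97. Median folds above that of Lrp1 occurred in Lrp10 (47.2) and Lrp12 (35.1), with 2 peaks each.

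Of the enzymes of folate-bound one-carbon and serine-glycine metabolism, 15 on covered sequence are given here, with a median of 1.04 peaks per 10 kb. Shmt2 was the densest at 5.64 per 10 kb. Aldh1l2, which encodes a mitochondrial formyltetrahydrofolate dehydrogenase, had 1.499, and Tyms, which encodes thymidylate synthase, had 1.42. The cytosolic counterpart Shmt1 had 0.447 per 10 kb, from 1 peak with a fold of 21.6 in 22369 bp. The mitochondrial enzyme gene Mthfd2, which acts after SHMT2, had 0.985 per 10 kb, and Phgdh, which begins serine synthesis, had 0.373. Peaks covered 52.3% of Shmt2, whereas the largest share in any other covered gene of this list was 7.86%, in Tyms. Shmt2 is also the shortest gene of the list on covered sequence.

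**Figure D5:**
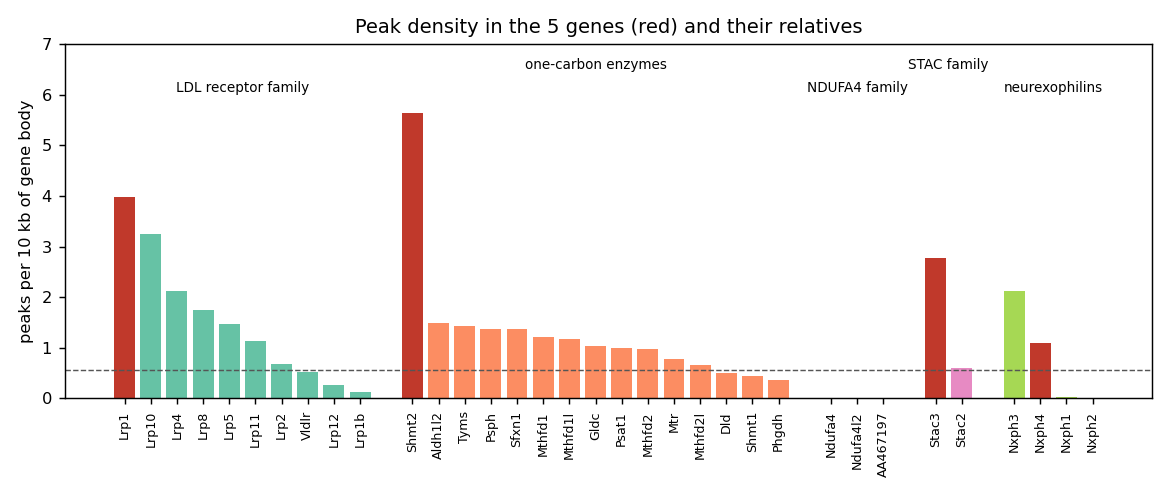
Peaks per 10 kb of gene body (vertical axis) for the 5 genes (red) and their relatives on covered sequence. The dashed line is the 0.569 per 10 kb of all protein-coding genes together. It is peaks summed over summed length, not a median over genes. Lrp1 (3.98), Shmt2 (5.64) and Stac3 (2.78) are the densest covered genes of their lists, though Stac3 has only Stac2 beside it. Nxph4 (1.10) is below Nxph3 (2.12), and all 3 NDUFA4 genes are at 0.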

How the data were processed

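The analysis rests on a single peak list. Its peak names show that 3 datasets were combined by a Samtools merge before calling; the submitters' processing notes name fastp, Bowtie2 and MACS2 and the builds mm10 and GRCm38, without versions. The deposited values are a fold enrichment (a ratio over the caller's background), a −log10 p and a −log10 q per peak, and a score equal to 10 times the −log10 q, cut to a whole number. Start, end and summit are positions, printed here counting from 1. The lowest deposited −log10 q was 20.0. An incomplete last line was left out. Chromosomes 1 to 5, 10 to 19 and part of 6 were covered.

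Pileup and background were solved from the deposited fold, (pileup + 1)/(background + 1), and the Poisson p-value, for whole pileups, which assumes that the caller defines both in this way; 99.97% of peaks matched within 1% of the spacing between pileups, all 46 members among them. The procedure was also run on peaks simulated with these same definitions. That run checks the solving only, and cannot show whether the caller uses these definitions. Genes and upstream sequences came from RefSeq (GRCm38.p6); genes within the first 3 Mb of a chromosome or beyond the last peak were left out. Peaks were placed by midpoint. The table gives no exons, and no genome sequence was used, so exons, introns and the CG content of peaks were not analysed here. Members and gene lists were chosen with earlier results of these data known. Of the planned one-carbon list, 2 genes are not reported here and enter none of its values. Named items were the 5 genes, all genes overlapping the interval, genes of the flanks with 3 or more peaks, and the members. Alternatives were stricter thresholds, other placements, merging, other flanks and the lowest background alone. Python 3.11.15, NumPy 2.4.6, pandas 2.3.3 and SciPy 1.17.1 were used.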

Additional observations from a re-analysis of the deposited data

How the results depend on the processing

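No paired analysis was possible because peaks were called on merged data and none of the deposited columns belongs to a sample; for the same reason no replicate could be left out. Of 35 values recomputed for 6 results, 32 stayed within the limits set (1.5 times for counts; the 95% binomial interval of the median, or of the share of peaks in the interval, otherwise). Merging peaks within 500 bp moved the other 3, which follows from its construction: the median width became 637 bp, the median gap 2120.5 bp and the peaks in Lrp1 21. Over the alternatives the interval held 31 to 46 peaks, the density ratio to the flanks ran from 1.82 (merged) to 3.65 (−log10 q of at least 100), and the median fold from 24.7 to 33.8. At the lowest background a limit on −log10 q is also a limit on fold. The higher median folds under the stricter limits therefore follow from construction, and the density ratios under them are not independent of fold. With flanks of 100 kb or 400 kb the ratio was 3.29 or 2.16. These intervals cover counting of peaks in 1 list only.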
